A study of Mus musculus with 12 samples.

Results

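The 10 genes described here are the TGF-beta ligands Tgfb1, Tgfb2 and Tgfb3, the receptors Tgfbr1, Tgfbr2 and Tgfbr3, and the latent TGF-beta binding proteins Ltbp1, Ltbp2, Ltbp3 and Ltbp4. They were taken by gene symbol from the 24422 features of each count table. All 10 passed the filter on low counts, as did 16713 features in all. Counts for the 10 genes ranged from 418 upwards in every library, so none was near the limit of detection.

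RNA came from stromal cells of mouse adipose tissue, the stromal vascular fraction that holds precursor, vascular and immune cells once fat cells are removed. The 12 libraries formed 4 groups of 3, and every group carried an mCherry cassette at 1 allele of the cell cycle inhibitor gene p21 (Cdkn1a). SD mCherry mice (genotype p21+/mcherry, replicates 1, 2 and 3) received a standard diet, and HFD mCherry mice (p21+/mcherry, replicates 15, 17 and 20) a high-fat diet. HFD Tert mice (p21+/mcherry-Tert, replicates 25, 26 and 27) expressed the telomerase reverse transcriptase Tert from the p21 promoter on the high-fat diet. HFD TertCi mice (p21+/mcherry-TertCi, replicates 30, 31 and 33) carried TertCi at the same place on the same diet. TertCi is known from work with this mouse as a catalytically inactive form of Tert. The p21 promoter drives the knock-in alleles, and bulk RNA does not show which cells express them. The series' design text names the high-fat diet control p21+/-, whereas the sample labels give p21+/mcherry, and the labels were followed. Sex, age, fat depot, batch and pooling are not given in the labels, and neither is whether replicates are separate animals, so p-values measure the spread between these libraries.

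TGF-beta is secreted as an inactive dimer, held in a complex with its own propeptide. In most tissues that complex is linked to a latent binding protein, which ties it to fibrillin and fibronectin fibres of the matrix. Integrins, proteases and thrombospondin release the ligand, which then joins the type II receptor (Tgfbr2) and the type I receptor kinase (Tgfbr1), and the receptors phosphorylate SMAD proteins. In adipose tissue the pathway is known for restraining the conversion of precursors into fat cells and for matrix deposition in obesity.

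The promoters of Tgfb1, Tgfb2 and Ltbp2 are shown because these genes had the 3 largest fold differences between the diets. Sequences are the 250 bases before the RefSeq start site on assembly GRCm38.p6, read 5′ to 3′ on the gene's strand, and capitals mark motif matches on either strand.
Tgfb1 (chr7:25686752-25687001, plus strand): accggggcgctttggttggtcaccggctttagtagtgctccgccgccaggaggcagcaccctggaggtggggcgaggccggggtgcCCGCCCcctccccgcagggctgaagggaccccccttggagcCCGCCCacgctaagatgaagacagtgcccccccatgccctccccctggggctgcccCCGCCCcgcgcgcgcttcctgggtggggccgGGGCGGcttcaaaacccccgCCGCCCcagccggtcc
Tgfb2 (chr1:186705990-186706239, minus strand): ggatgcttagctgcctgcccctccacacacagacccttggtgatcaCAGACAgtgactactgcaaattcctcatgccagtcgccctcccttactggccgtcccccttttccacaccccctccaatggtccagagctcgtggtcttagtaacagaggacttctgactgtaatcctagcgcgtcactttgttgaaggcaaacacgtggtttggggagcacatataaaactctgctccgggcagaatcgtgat
Ltbp2 (chr12:84876492-84876741, minus strand): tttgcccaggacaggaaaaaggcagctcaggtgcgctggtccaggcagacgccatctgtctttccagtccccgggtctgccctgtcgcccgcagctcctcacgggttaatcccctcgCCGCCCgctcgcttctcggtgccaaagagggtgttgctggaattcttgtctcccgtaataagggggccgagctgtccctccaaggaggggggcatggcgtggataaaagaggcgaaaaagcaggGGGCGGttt
The Tgfb1 window was 75.2% G and C and held 5 GC boxes (GGGCGG), the sequence that Sp-type factors bind, which 32.7% of 32851 promoter windows hold at least once. The Ltbp2 window was 61.6% G and C and held 2 GC boxes. The Tgfb2 window was 53.6% G and C, held no GC box and had 1 CAGACA, a SMAD-type element present in 17.1% of windows. None of the 3 windows held the AP-1 motif TGANTCA, found in 6.75% of windows, or the cyclic AMP response element TGACGTCA, found in 1.55%. The 4 motifs do not overlap one another in these windows. The RefSeq table matched 8 of the 10 genes, and Tgfb3 and Tgfbr3 were not among them.

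All 10 are protein-coding genes. On mm10, the ligands lie at chr7:25687002-25705077 (Tgfb1, plus strand), chr1:186622792-186705989 (Tgfb2, minus) and chr12:86056745-86079041 (Tgfb3, minus). The receptors lie at chr4:47353222-47414931 (Tgfbr1, plus), chr9:116084293-116175360 (Tgfbr2, minus) and chr5:107106570-107289629 (Tgfbr3, minus). The latent binders lie at chr17:75005568-75392512 (Ltbp1, plus), chr12:84783212-84876532 (Ltbp2, minus), chr19:5740904-5758532 (Ltbp3, plus) and chr7:27305136-27337692 (Ltbp4, minus). The largest exon overlap with another gene was 9.34% of the Ltbp2 exons, shared with D030025P21Rik on the opposite strand. The strand setting of the counting is not given, so reads from such shared bases cannot be assigned to 1 gene.

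The libraries held 16430330 to 19486965 counts. Tert stood at 0.463 to 3.96 CPM (counts scaled to a common TMM-normalised library size) in the 6 libraries without a Tert transgene. It stood at 6.98 to 16.5 CPM in the 6 knock-in libraries, above every control, with an edgeR adjusted p of 0.056 for both knock-in groups against HFD mCherry. Markers of precursors (Pdgfra), endothelium (Pecam1) and macrophages (Adgre1) were present in all groups. The libraries were uneven in more than 1 respect. Erythrocyte and platelet markers summed to 1707 to 8671 CPM in SD mCherry and 3325 to 6895 CPM in HFD mCherry. They summed to 2671 to 21320 CPM in HFD Tert and 3344 to 13331 CPM in HFD TertCi. An epididymis gene, Crisp1, stood above 500 CPM in 8 of the 12 and below 1 CPM in the others, namely SD mCherry replicate 2, HFD mCherry replicate 20, HFD Tert replicate 27 and HFD TertCi replicate 31, which is 1 library per group. Because the samples are bulk RNA, fewer cells of a type and less RNA per cell cannot be told apart.

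On the high-fat diet, fitted levels of 2 ligands (Tgfb1 and Tgfb2), the 2 signalling receptors and 1 latent binder (Ltbp2) lay 0.81 to 1.87 log2 units above those on the standard diet. Tgfb1 averaged 181 ± 60.4 CPM (SD, n = 3) in HFD mCherry against 49.6 ± 5.19 in SD mCherry, and Ltbp2 averaged 96.6 ± 18.7 against 29.3 ± 4.67. No member passed the adjusted threshold of 0.05 in edgeR's quasi-likelihood test, where 8 of 16713 genes did (0.0479%), and 0 of 10 did so in any comparison below. At an unadjusted p under 0.05, 5 of 10 were higher (Tgfb1, Tgfb2, Tgfbr1, Tgfbr2 and Ltbp2) and 0 lower, where 14.1% of all genes were higher and 10% lower. The median log2 difference was 0.82 over the 10 members and -0.08 over all genes. DESeq2 called the same 5 members higher at an adjusted p under 0.05, against 8.03% of the genes it tested, and limma-voom called 0 members and 0% of genes. An edgeR F-test over the 4 groups also called 0 of 10, where 0.012% of genes were called, and its smallest adjusted p among the members was 0.122 (Tgfb1 and Ltbp2).

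Tgfb1 encodes the ligand made by most immune and stromal cells. It stood at 47.7, 55.5 and 45.7 CPM in SD mCherry replicates 1, 2 and 3, and at 117, 237 and 190.2 CPM in HFD mCherry replicates 15, 17 and 20. Every high-fat library exceeded every standard-diet library. The gap between the groups (55.5 to 117 CPM) was wider than the spread within SD mCherry but narrower than that within HFD mCherry (117 to 237 CPM). The log2 difference was 1.87 ± 0.33 (SE), with an edgeR adjusted p of 0.0657 that ranged from 7.98e-05 to 0.261 over 21 alternative analyses. Tgfb1, Tgfbr1 and Ltbp2 were the members whose diet groups did not overlap, 3 of 10 against 13.9% of all genes in the same direction.

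Tgfb2 is the ligand that needs the co-receptor betaglycan for efficient binding. Its level was 40.2, 53.8 and 38.8 CPM on the standard diet, and 48.6, 184 and 175 CPM in HFD mCherry replicates 15, 17 and 20. Replicate 15 lay inside the standard-diet range, and the other high-fat libraries stood far above it. The log2 difference was 1.62 ± 0.47 with an edgeR adjusted p of 0.0947. Tgfb3, the third ligand and known from palate and wound studies, did not share this difference. It measured 51.7, 56.9 and 39.9 CPM on the standard diet and 33.1, 48.4 and 52.0 CPM on the high-fat diet, with overlapping groups. Its log2 difference was -0.15 ± 0.33, with a 95% interval from -0.89 to 0.58.

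**Figure D1:**
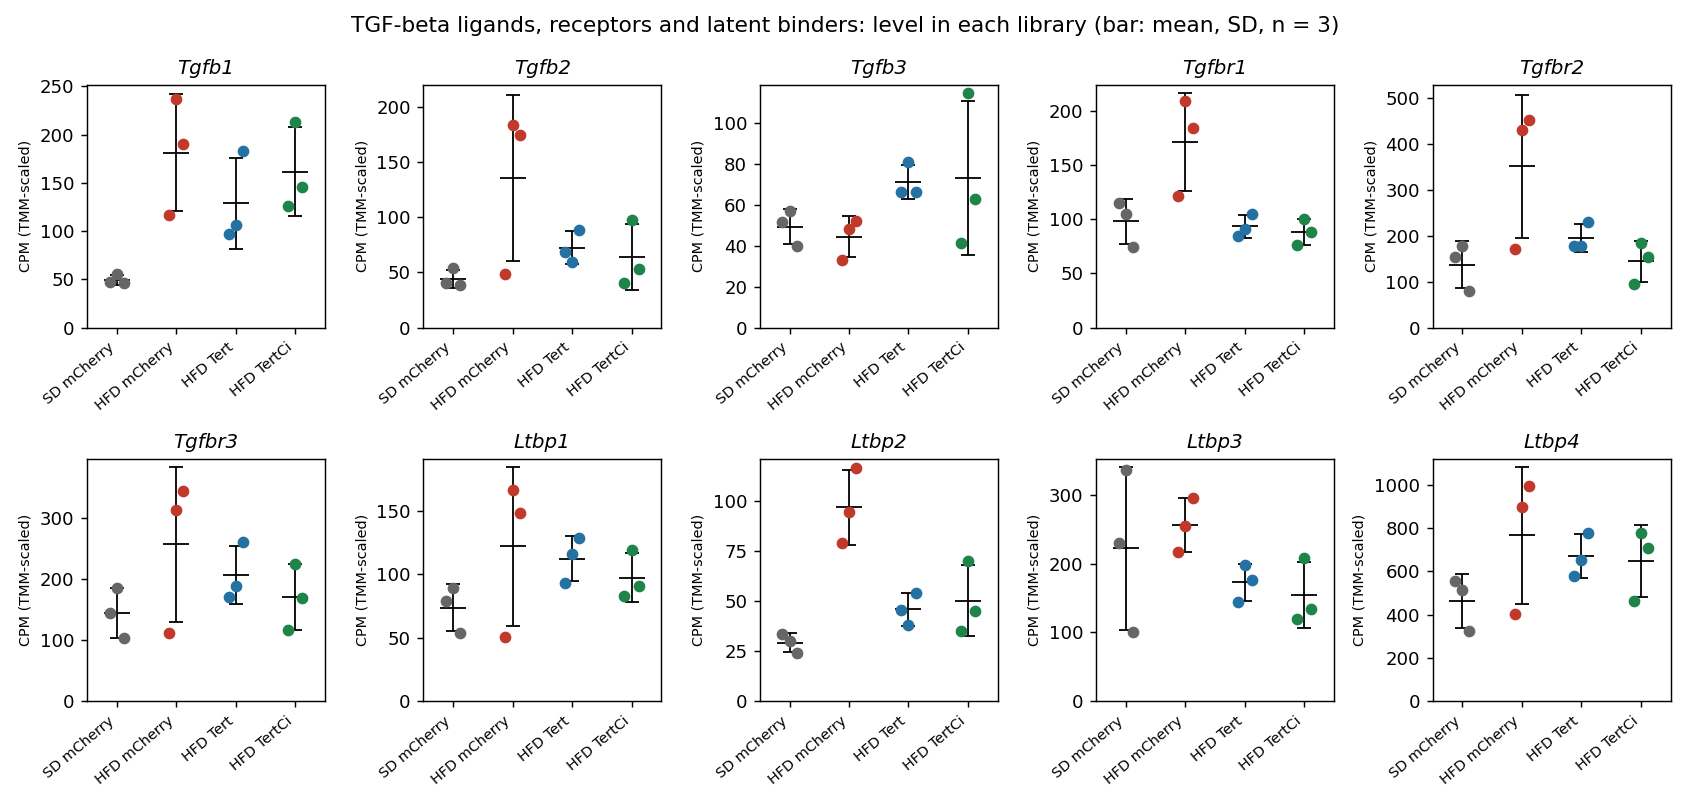
Levels of the 10 genes in CPM (TMM-scaled library size, linear axis from 0) in each of the 12 libraries, with 1 panel per gene and bars for the group mean and SD (n = 3). HFD mCherry is the highest group mean for 9 genes and the lowest for Tgfb3, and the lowest HFD mCherry point in each panel is replicate 15.

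Both signalling receptors had higher fitted levels on the high-fat diet. Tgfbr1, the type I receptor kinase, stood at 115, 105 and 74.5 CPM in the SD mCherry libraries and at 121, 209 and 185 CPM in HFD mCherry replicates 15, 17 and 20. The groups did not overlap, but the gap was narrow, since replicate 15 (121 CPM) was just above the highest standard-diet library (115 CPM). Its log2 difference was 0.81 ± 0.24 (edgeR adjusted p = 0.101). Tgfbr2, the ligand-binding type II receptor, stood at 154, 177 and 78.8 CPM on the standard diet and at 171, 430.4 and 452 CPM on the high-fat diet. Here replicate 15 lay within the standard-diet range, and the log2 difference was 1.36 ± 0.41 (edgeR adjusted p = 0.103). Tgfbr3, which is betaglycan, showed the same layout at 145, 186 and 104 CPM against 112, 313 and 345 CPM. Its log2 difference of 0.83 ± 0.41 had an edgeR adjusted p of 0.242.

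Among the latent binders, Ltbp2 differed most between the diets. Ltbp2 is a matrix protein of elastic fibres and is the family member known not to bind latent TGF-beta. It measured 33.3, 30.3 and 24.2 CPM on the standard diet and 79.0, 94.4 and 116 CPM in HFD mCherry replicates 15, 17 and 20. The lowest high-fat library (79.0 CPM) was far above the highest standard-diet library (33.3 CPM), and the log2 difference was 1.72 ± 0.28 (edgeR adjusted p = 0.0652, with a range over alternatives of 1.99e-05 to 0.261). Ltbp1, a main carrier of latent TGF-beta, ran from 53.4 to 88.9 CPM on the standard diet and from 50.7 to 167 CPM on the high-fat diet. Ltbp4, which binds latent ligand and takes part in elastic fibre assembly, ran from 323 to 555 CPM and from 405 to 995 CPM. The log2 differences were 0.73 ± 0.38 for Ltbp1 and 0.72 ± 0.36 for Ltbp4, with overlapping groups. Ltbp3, the third carrier of latent ligand, had its widest spread on the standard diet, at 229, 337 and 101 CPM, against 217, 255 and 295 CPM on the high-fat diet. Its log2 difference was 0.20 ± 0.38, with a 95% interval from -0.64 to 1.04.

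HFD mCherry replicate 15 carried much of the spread. Its level as a ratio to the mean of replicates 17 and 20 was 0.271 for Tgfb2, 0.322 for Ltbp1, 0.341 for Tgfbr3, 0.388 for Tgfbr2 and 0.428 for Ltbp4. It was closer for Tgfb1 (0.547), Tgfbr1 (0.615), Tgfb3 (0.660), Ltbp2 (0.750) and Ltbp3 (0.787). Without replicate 15, edgeR called 7 of 10 members higher on the high-fat diet, where 8.76% of 17069 genes were called higher. Those 7 were Tgfb1, Tgfb2, Tgfbr1, Tgfbr2, Tgfbr3, Ltbp1 and Ltbp2, with log2 differences of 1.00 to 2.10. This leaves 2 libraries in the group. Without HFD Tert replicate 27, which is in neither diet group but enters the estimate of spread, edgeR called 2 of 10 higher (Tgfb1 and Ltbp2), against 3.33% of genes. Replicate 15 had 2392 CPM of Crisp1, replicate 17 had 640 CPM and replicate 20 had 0.239 CPM. Over 12 epididymis and epithelium markers the mean log2(CPM + 1) was 10.03, 3.85 and 2.53, in that order. Replicate 15 was the highest of the 12 libraries, followed by SD mCherry replicate 3 (8.92). Pearson's r of this mean with the members over the 12 libraries ran from -0.90 (Tgfbr3) to -0.46 (Tgfbr1). The part of this signal in the low levels of replicate 15 was not tested. Restricting the fit to the 8 libraries with Crisp1 gave 0 members and 0% of genes called, with 10 of 10 in the same direction as in all 12. In the 4 libraries with under 1 CPM of Crisp1, 9 of 10 kept the direction of the diet difference, and the exception was Ltbp3. Both subsets are parts of the same 12 libraries, the second with 1 library per group, so shared direction is in part built in.

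The sums of several cell type markers differed between the same groups. The 10 macrophage markers summed to 1131 to 1197 CPM in SD mCherry and to 2157 to 5315 CPM in HFD mCherry, and 10 of 10 were higher. The 10 fibroblast and progenitor markers summed to 3494 to 4760 CPM and 4501 to 11865 CPM, and 8 of 10 were higher. Endothelial markers summed to 963 to 1319 CPM and 1842 to 3321 CPM, with 9 of 10 higher. No marker of these 3 lists was at 0 in any library. The sums also did not overlap for T and NK cell markers (25.7 to 72.8 CPM in SD mCherry, 114 to 205 CPM in HFD mCherry) and neutrophil markers (3.44 to 6.96 CPM and 11.7 to 20.7 CPM). Of the 10 T and NK cell markers, 7 were higher and 3 lower. On the lower side in HFD mCherry were the mesothelial (542 to 1663 CPM and 326 to 370 CPM) and mature adipocyte (208 to 276 CPM and 148 to 196 CPM) markers. The part of these lists in the differences of the TGF-beta genes was not tested.

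Per length of transcript, Ltbp4 was the most abundant of the 10 in every group. It reached 71.7 ± 19.1 CPM per kb of exon (SD, n = 3) on the standard diet and 119 ± 49.0 in HFD mCherry. Its level was 104 ± 15.8 with Tert and 100.3 ± 25.6 with TertCi, and its range did not overlap that of the next gene in any group. In SD mCherry the order went on with Ltbp3 (24.5), Tgfbr3 (22.1), Tgfbr2 (16.7), Tgfbr1 (15.03) and Tgfb3 (14.6), neighbours whose ranges overlapped. Tgfb1 (9.85), Tgfb2 (7.64) and Ltbp1 (6.90) formed a lower set, and Ltbp2 (3.58) was lowest without overlap. Tgfb1 held rank 7 of 10 on the standard diet but rank 4 (35.9 CPM per kb) in HFD mCherry. With the Tert allele it held rank 3 (25.6), and with TertCi rank 2 (32.1), both means below that of HFD mCherry. Its range overlapped that of the gene ranked above it in HFD mCherry and HFD Tert, and of the gene below it in HFD TertCi.

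The Tert and TertCi groups address what the knock-in alleles do on the high-fat diet. HFD mCherry is also the upper group of the diet comparison, so the comparisons share those 3 libraries and are not independent. Against HFD mCherry, 9 of 10 members had lower fitted levels in HFD Tert and 9 of 10 in HFD TertCi, and Tgfb3 was the exception in both. None was called by edgeR in either comparison, where 0% and 0.012% of genes were called. At an unadjusted p under 0.05, 2 members were lower in HFD Tert (Tgfbr1 and Ltbp2), against 9.75% of all genes. In HFD TertCi 4 were lower (Tgfb2, Tgfbr1, Tgfbr2 and Ltbp2), against 8.92%. With both knock-in groups set against HFD mCherry, 4 were lower (Tgfb2, Tgfbr1, Tgfbr2 and Ltbp2) against 13.4%, and Tgfb3 was higher against 7.56%.

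Tgfbr1 and Ltbp2 had the clearest separation. Tgfbr1 stood at 84.7, 90.9 and 105 CPM in HFD Tert and at 76.2, 100.5 and 88.5 CPM in HFD TertCi, and all 6 values lay under the lowest HFD mCherry library at 121 CPM. Ltbp2 stood at 45.4, 38.0 and 54.2 CPM in HFD Tert and at 35.2, 69.7 and 45.2 CPM in HFD TertCi, under the lowest HFD mCherry value of 79.0 CPM. The log2 differences for both knock-in groups against HFD mCherry were -0.92 ± 0.20 for Tgfbr1 (edgeR adjusted p = 0.0667, range over alternatives 0.00488 to 0.261) and -1.01 ± 0.23 for Ltbp2 (0.0675, range 0.00528 to 0.285). DESeq2 called both lower, against 5.37% of its genes. Ltbp3 also did not overlap, at 120.1 to 209 CPM in the 6 knock-in libraries, so that 3 of 10 members lay wholly under HFD mCherry, against 7.03% of all genes.

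Tgfb2 and Tgfbr2 had lower means in the knock-in groups but overlapped HFD mCherry. Tgfb2 measured 68.9, 59.9 and 88.9 CPM in HFD Tert and 40.5, 97.9 and 53.4 CPM in HFD TertCi. These values lie between the low HFD mCherry replicate 15 (48.6 CPM) and the others (184 and 175 CPM), apart from HFD TertCi replicate 30, which was lower still. Tgfbr2 measured 177, 179 and 230 CPM in HFD Tert and 94.98, 184 and 154 CPM in HFD TertCi. The log2 differences for both knock-in groups were -0.99 ± 0.39 for Tgfb2 (edgeR adjusted p = 0.183) and -1.07 ± 0.34 for Tgfbr2 (0.130). Without HFD mCherry replicate 15, edgeR called Tgfb2, Tgfbr1, Tgfbr2 and Ltbp2 lower, 4 of 10 against 3.57% of genes, and TertCi alone gave 1 member (Tgfbr1) against 1.08%. It called Tgfbr1 and Ltbp2 lower without HFD Tert replicate 27 (2.4% of genes) and without SD mCherry replicate 3 (2.07%).

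Tgfb1 and Tgfb3 did not follow that layout. Tgfb1 measured 97.1, 106 and 183 CPM in HFD Tert and 126, 213 and 146 CPM in HFD TertCi, within the HFD mCherry range apart from the 2 lower HFD Tert libraries. Its log2 difference for both knock-in groups was -0.33 ± 0.28, with a 95% interval from -0.94 to 0.28. Tgfb3 measured 66.2, 81.1 and 66.6 CPM in HFD Tert, all above the highest HFD mCherry library at 52.0 CPM, against 9.99% of genes higher without overlap. In HFD TertCi it measured 41.4, 115 and 63.2 CPM, which overlapped HFD mCherry. Its log2 difference for both groups was 0.70 ± 0.30 (edgeR adjusted p = 0.216). Mesothelial markers summed to 326 to 370 CPM in HFD mCherry but to 880 to 2149 CPM with Tert and 751 to 1173 CPM with TertCi, and 8 of 9 tested were higher in the knock-in groups. Endothelial markers were also higher, 9 of 10 in each group, with overlapping sums (1842 to 3321 CPM in HFD mCherry, 2296 to 5676 CPM in the knock-in libraries). So were 7 of 10 mature adipocyte and 7 of 10 pericyte and smooth muscle markers in each group. Macrophage markers had lower fitted levels in those groups, 9 of 10 in HFD Tert and 10 of 10 in HFD TertCi. So did 8 of 10 fibroblast and progenitor markers in each group, with the other 2 higher, and 7 of 7 mast cell markers. The fibroblast and progenitor sums overlapped, at 4321 to 9280 CPM in the knock-in libraries and 4501 to 11865 CPM in HFD mCherry. T and NK cell markers summed to 23.8 to 64.9 CPM in the knock-in libraries against 114 to 205 CPM in HFD mCherry. Gene by gene, 9 of 10 were lower in HFD Tert, but in HFD TertCi 4 were lower and 6 higher. The part of these lists in the differences of the TGF-beta genes was not tested.

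Tgfbr3, Ltbp1 and Ltbp4 stayed within the HFD mCherry ranges. Over the 6 knock-in libraries Tgfbr3 ran from 117 to 261 CPM, Ltbp1 from 82.5 to 128 CPM and Ltbp4 from 462 to 779 CPM. The log2 differences for both groups were -0.45 ± 0.35, -0.22 ± 0.33 and -0.22 ± 0.31. In HFD Tert alone, Ltbp1 (-0.12 ± 0.38) turned positive when limma-voom or library size scaling without TMM was used.

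**Figure D2:**
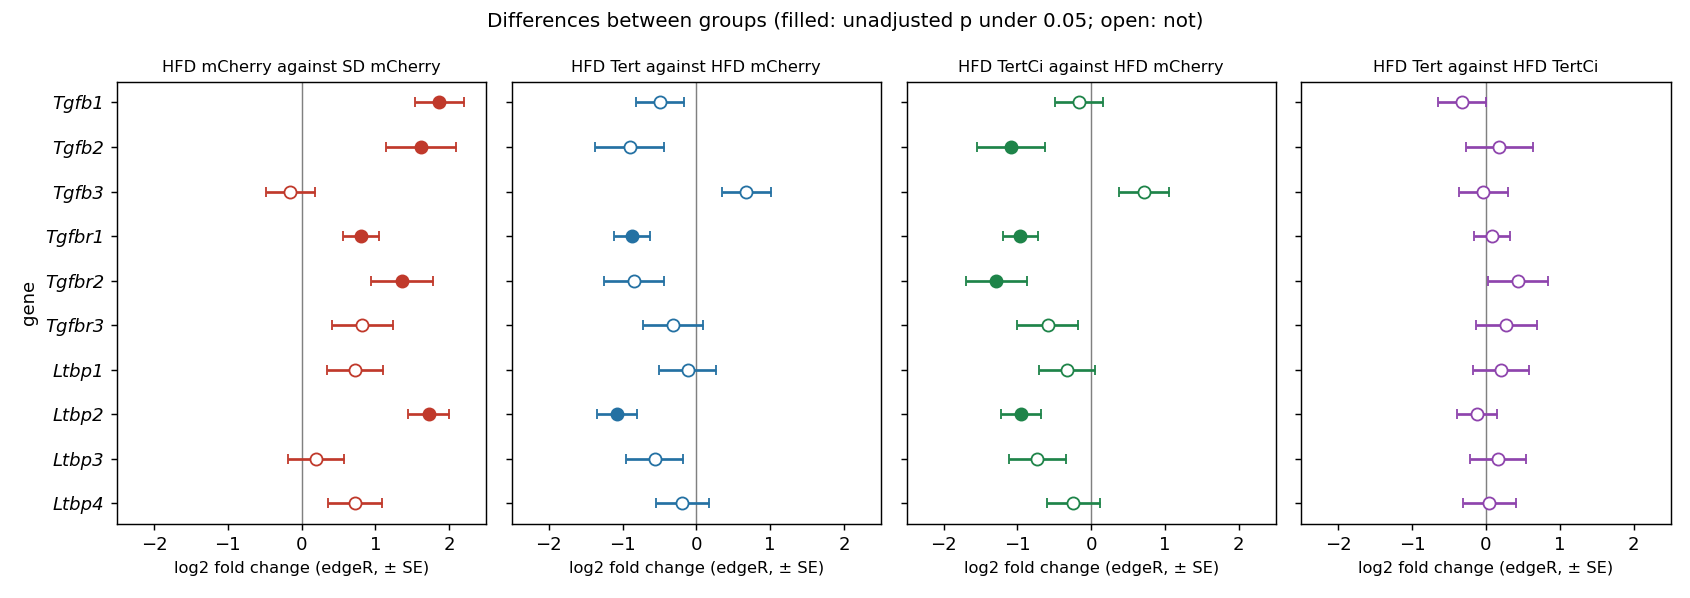
Log2 fold changes of the 10 genes from edgeR in 4 comparisons, with bars of 1 SE, filled points for an unadjusted p under 0.05 and open points otherwise. For the diet 5 points are filled, all right of 0, and against HFD mCherry 2 (HFD Tert) and 4 (HFD TertCi) are filled, all left of 0, while Tgfb3 lies on the opposite side in each.

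HFD Tert and HFD TertCi were not distinguished by any of the 10 genes. The log2 differences of Tert minus TertCi ran from -0.33 (Tgfb1, 95% interval -1.04 to 0.39) to 0.44 (Tgfbr2, -0.46 to 1.34). The edgeR adjusted p was 1 for each, as 0% of genes were called. Among the members, 0 of 10 reached an unadjusted p under 0.05, where 1.36% of all genes did, and the groups overlapped for all 10, where 5.13% of genes did not overlap. The intervals were narrowest for Tgfbr1 (-0.45 to 0.62) and Ltbp2 (-0.72 to 0.47), and widest for Tgfb2 (-0.83 to 1.20).

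The knock-in groups were also set against SD mCherry, a comparison added after the data were seen in which both diet and allele differ, and in which 0% of genes were called by edgeR. Tgfb1 stood apart. It measured 97.1 to 213 CPM in the 6 knock-in libraries and 45.7 to 55.5 CPM in SD mCherry, a log2 difference of 1.54 ± 0.30 (edgeR adjusted p = 0.0585, range over alternatives 1.44e-04 to 0.645). Ltbp2 also did not overlap, with 0.71 ± 0.24 (edgeR adjusted p = 0.139), so that 2 of 10 members were wholly higher, against 6.34% of all genes. DESeq2 called Tgfb1 alone among the members, where 3.14% of its genes were called higher. Tgfb1 was also the 1 member that edgeR called without SD mCherry replicate 3 (0.872% of genes higher), HFD mCherry replicate 15 (0.849%) or HFD mCherry replicate 17 (0.128%). Tgfbr1 and Tgfbr2, by contrast, had log2 differences of -0.11 ± 0.21 and 0.30 ± 0.36, with overlapping groups. The 95% interval ran from -0.57 to 0.35 for Tgfbr1 and from -0.49 to 1.09 for Tgfbr2.

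The make-up of the ligand transcripts was measured as each ligand's share of the summed ligand counts per kb of exon. On the standard diet Tgfb3 held the largest share, 45.4% ± 2.71 (SD, n = 3), with 30.8% ± 1.80 for Tgfb1 and 23.7% ± 1.63 for Tgfb2. In HFD mCherry Tgfb1 held 50.6% ± 5.35, Tgfb2 30.2% ± 8.65 and Tgfb3 19.2% ± 4.19. Tgfb3 ranged from 42.8% to 48.2% on the standard diet and from 15.4% to 23.7% in HFD mCherry, with HFD TertCi between them at 27.7% to 36.4%. HFD Tert, at 27.6% to 43.3%, just reached the standard-diet range. HFD mCherry was therefore below every other library for the Tgfb3 share, its replicate 15 (23.7%) included. The Tgfb1 share in HFD TertCi, 50.9% ± 5.55, was close to that of HFD mCherry, whereas in HFD Tert it was 42.3% ± 7.46, with replicates 25 and 26 at 38.0% and replicate 27 at 50.9%. Shares within a library do not depend on its scaling, and they were not tested.

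**Figure D3:**
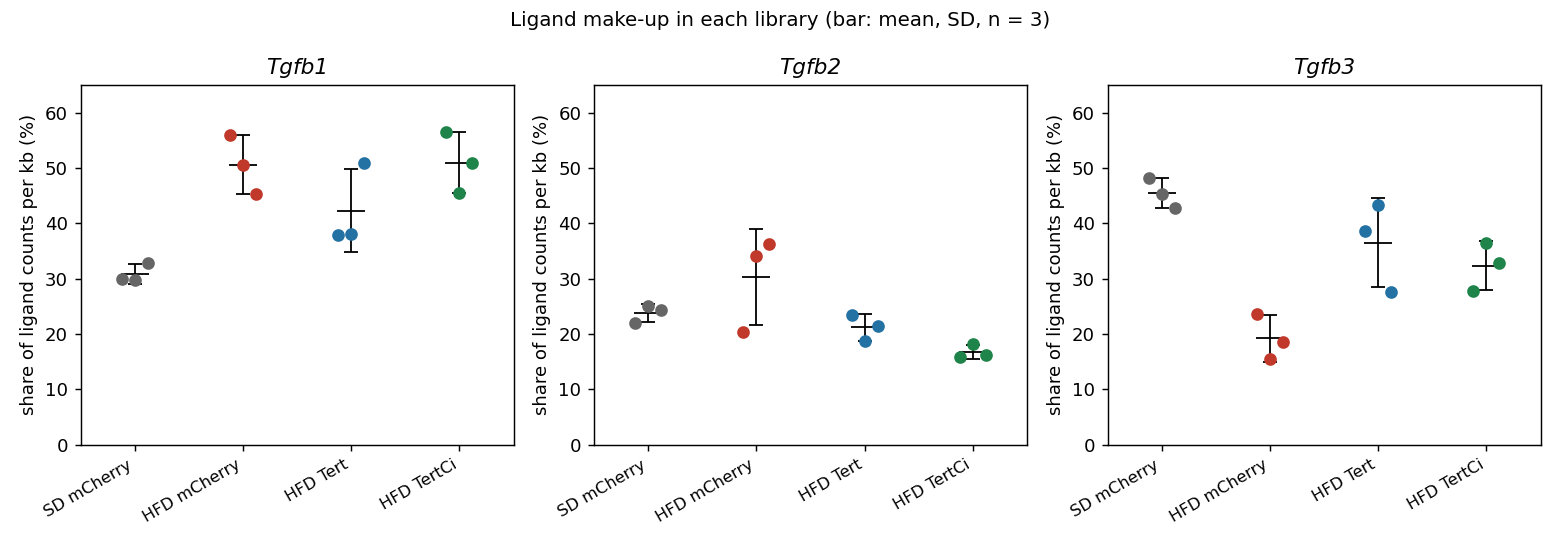
Share of each ligand in the summed ligand counts per kb of exon (percent) in each library, with bars for the group mean and SD (n = 3). The 3 HFD mCherry libraries lie between 15.4% and 23.7% for Tgfb3, under the other 9 libraries, and the 3 SD mCherry libraries lie between 29.7% and 32.9% for Tgfb1.

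Within the receptors, Tgfbr3 held 30.3% to 38.7% in HFD mCherry and a larger share in both knock-in groups, 43.0% to 47.4% in HFD Tert and 43.4% to 47.6% in HFD TertCi. Tgfbr2 held 37.0% to 40.5% in HFD mCherry, above all libraries of the other groups, where its highest share was 35.6%. Among the latent binders, Ltbp4 made up 61.7% to 79.2% in the 12 libraries. Ltbp2 held 5.94% to 9.57% in HFD mCherry and less in the other groups, 2.88% to 4.28% on the standard diet, 3.36% to 4.65% with Tert and 3.998% to 5.23% with TertCi. As with the Tgfb3 share, HFD mCherry stood outside the range of every other library. Shares were calculated for the members alone, so no rate over all genes stands beside these separations.

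The remaining genes of the pathway were read in 4 lists. In the list of 19 genes for activation of the latent complex and its anchoring to matrix, 0 were called by edgeR for the diet, while 13 were higher and 1 lower at an unadjusted p under 0.05, where 14.1% of all genes were higher and 10% lower. The median log2 difference of the list was 1.43, against -0.08 over all genes. Its 3 smallest p-values belonged to Mmp2, a gelatinase that can release latent TGF-beta, at 693 ± 416 CPM against 99.6 ± 17.5 (log2 2.80 ± 0.48, edgeR adjusted p = 0.0652), Emilin1 (1.36 ± 0.28), a matrix protein that restrains ligand processing, and Lrrc32 (2.02 ± 0.45), the cell-surface docking protein GARP. Mmp9, another gelatinase, was the 1 gene lower, at 5.54 ± 2.41 CPM against 21.2 ± 6.16 CPM, and is named after its value was seen. Without HFD mCherry replicate 15, edgeR called 13 of the 19 higher, against 8.76% of all genes.

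Against HFD mCherry, Mmp2 fell in the 6 knock-in libraries as 1 group, the 1 listed gene that edgeR called in any comparison. It stood at 127 ± 26.6 CPM (SD, n = 6) against 693 ± 416 CPM (n = 3), a log2 difference of -2.45 ± 0.37 with an edgeR adjusted p of 0.0443, in a comparison where 0.168% of genes were called. The call did not hold in 9 of 12 fits that each left out 1 library, with adjusted p from 0.00109 to 0.223, or with limma-voom (0.074). In the list of 19, 10 were lower and 0 higher at an unadjusted p under 0.05, against 13.4% and 7.56% of all genes. The median log2 difference was -0.76, against -0.05 over all genes. Emilin1 (-1.32 ± 0.23) and Itgav (-1.15 ± 0.23), the integrin subunit common to the receptors that pull latent TGF-beta open, followed Mmp2 with edgeR adjusted p of 0.0545 and 0.0560.

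Of the 8 co-receptors, ligand traps and related type I receptors, 5 were higher and 1 lower for the diet at an unadjusted p under 0.05, against 14.1% and 10% of all genes, with a median log2 difference of 0.94. The matrix proteoglycan Bgn (2.06 ± 0.45), the related Aspn (1.92 ± 0.62) and the endothelial type I receptor Acvrl1 (1.26 ± 0.46) had the smallest p-values, with edgeR adjusted p from 0.0671 to 0.143. Bambi, a decoy receptor that blocks signalling, was the lower gene (-0.65 ± 0.27). Against HFD mCherry, both knock-in groups gave 1 higher (Bambi, 0.68 ± 0.24) and 1 lower (Bgn, -1.20 ± 0.36), with the median at -0.21. These counts are near the share of all genes, 7.56% higher and 13.4% lower.

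Of the 14 SMADs and intracellular regulators, 3 were higher and 1 lower for the diet at an unadjusted p under 0.05, near the share of all genes (14.1% higher and 10% lower), with a median log2 difference of 0.21. The ubiquitin ligases Smurf2 (0.69 ± 0.22) and Smurf1 (1.03 ± 0.33), which degrade receptors and SMADs, were on the higher side. The inhibitory SMAD gene Smad6 (-0.86 ± 0.30) was the lower one, with edgeR adjusted p of 0.133. Smad6 stood at 39.9 ± 13.4 CPM on the standard diet, 22.0 ± 1.12 CPM in HFD mCherry and 44.2 ± 12.6 CPM in the 6 knock-in libraries. It was the only gene of the 14 at an unadjusted p under 0.05 for both knock-in groups against HFD mCherry (1.00 ± 0.27, edgeR adjusted p = 0.0959). That count, 1 higher and 0 lower, does not exceed the share of all genes, 7.56% higher and 13.4% lower.

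The 18 genes known to respond to TGF-beta split into sets. For the diet, 8 were higher and 3 lower at an unadjusted p under 0.05, against 14.1% and 10% of all genes, with a median log2 difference of 0.51. The 3 with the smallest p were the matrix genes Tnc (3.12 ± 0.49) and Postn (3.44 ± 0.59) and the protease inhibitor gene Timp1 (3.62 ± 0.64), each with an edgeR adjusted p of 0.0652. The 3 lower genes, named after their values were seen, were the contractile genes Tagln (-2.24 ± 0.71) and Acta2 (-2.26 ± 0.79), and Ccn2 (-0.54 ± 0.22), which the files list as Ctgf. Against HFD mCherry, both knock-in groups had 9 lower and 3 higher, against 13.4% and 7.56% of all genes. The collagen genes Col1a1 (-2.09 ± 0.42) and Col3a1 (-2.09 ± 0.55) were among the lower, and Ccn2 (0.73 ± 0.20), Tagln (2.39 ± 0.66) and Acta2 (2.59 ± 0.75) were the higher. The edgeR adjusted p for these genes ran from 0.0560 (Col1a1) to 0.106 (Acta2). Acta2 is also on the pericyte and smooth muscle list, whose markers summed to 1389 to 2592 CPM in HFD mCherry. In the other groups the sum was low in the library without Crisp1, at 1981 CPM (SD mCherry replicate 2), 1851 CPM (HFD Tert replicate 27) and 2428 CPM (HFD TertCi replicate 31). The libraries with Crisp1 summed to 6085 and 17965 CPM on the standard diet, 12360 and 17653 CPM with Tert, and 11172 and 9743 CPM with TertCi. The part of those cells and of this library split in the Acta2 and Tagln values was not tested.

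**Figure D4:**
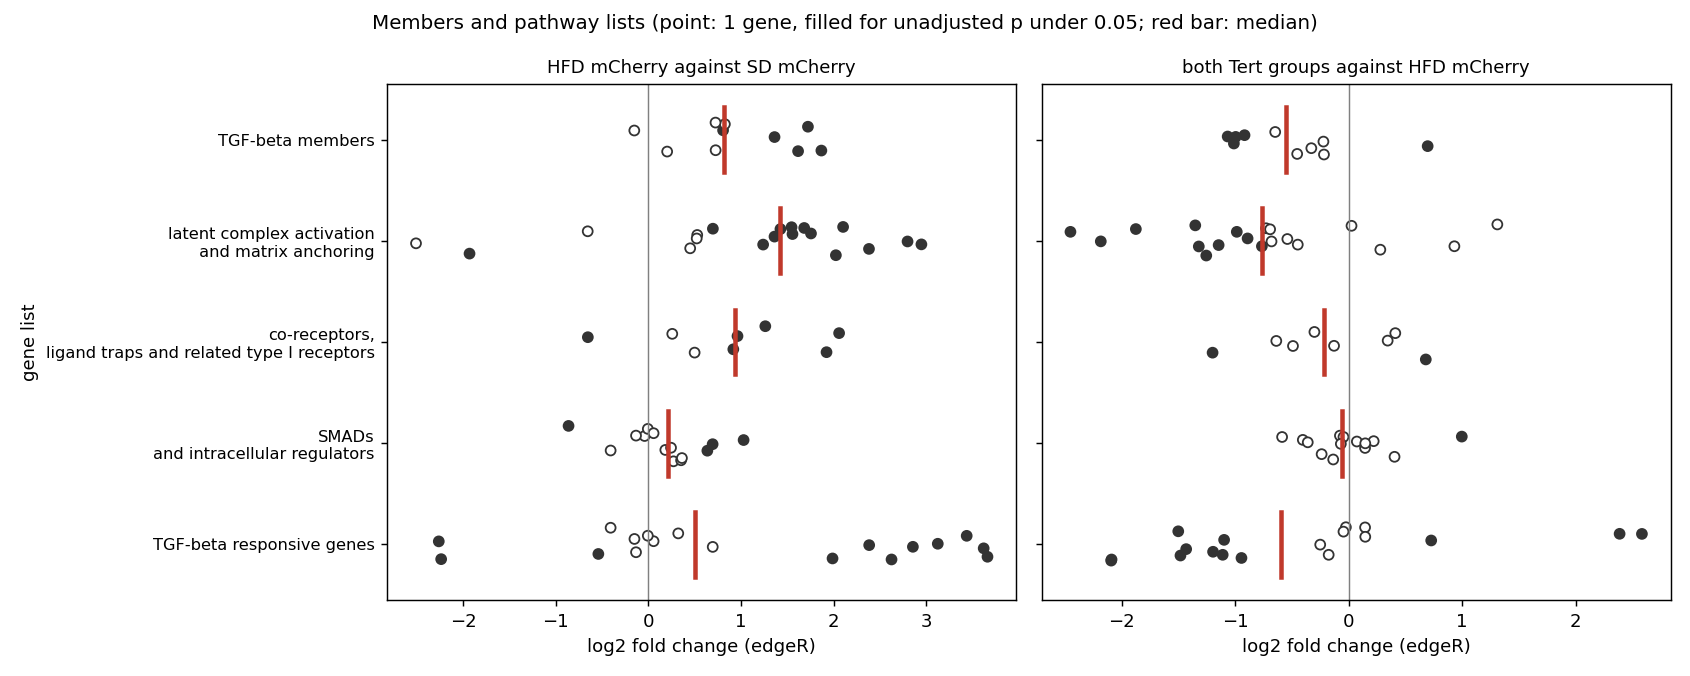
Log2 fold changes from edgeR for the 10 members and the 4 pathway lists, with 1 point per gene, filled for an unadjusted p under 0.05, and a red bar for the list median. For the diet the medians run from 0.21 (SMADs and regulators) to 1.43 (activation and anchoring), and for both Tert groups against HFD mCherry from -0.76 to -0.06.

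HFD Tert and HFD TertCi did not separate on these lists either. Of all genes on the 4 lists, 0 reached an unadjusted p under 0.05 in that comparison, and each edgeR adjusted p was 1. Over all genes 1.36% reached it, so a count of 0 is near that share. List medians ran from 0.05 to 0.225.

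Across the 12 libraries Tgfb3 was the member least like the others. Pearson's r of log2(CPM + 1) over the 36 pairs without Tgfb3 ran from 0.165 to 0.942 with a median of 0.748, whereas the 9 pairs with Tgfb3 ran from -0.131 to 0.549 with a median of 0.290. These values describe libraries that share diet, genotype and the uneven epididymis signal, and they carry no test. The search for the most similar genes covered 12344 genes averaging 5 CPM or more. The genes most like each member were Il2rg for Tgfb1 (0.985), Rbpj for Tgfb2 (0.984), Ptpn14 for Tgfb3 (0.953), Clcn4-2 for Tgfbr1 (0.976), Acap2 for Tgfbr2 (0.981) and Olfml2b for Tgfbr3 (0.988). For the latent binders they were Adamtsl5 for Ltbp1 (0.964), Wisp1 for Ltbp2 (0.967), Atp10a for Ltbp3 (0.965) and Slc43a3 for Ltbp4 (0.965). The next most like were Tnfrsf10b and Sema7a (Tgfb1), Il1r1 and Medag (Tgfb2), Fam180a and Susd5 (Tgfb3), Slc38a9 and Lrp1 (Tgfbr1), Flrt2 and Ust (Tgfbr2), and Arnt and Sdc2 (Tgfbr3). They were Pi4k2b and Adgrd1 (Ltbp1), Atp2b1 and Ncf4 (Ltbp2), Iqsec1 and Plat (Ltbp3), and Gm16897 and Smc1a (Ltbp4).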

How the data were processed

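Per the labels' protocols, poly-A RNA was selected and copied from random hexamer primers in each of the 12 libraries. The authors deposited raw counts, 1 table per library, per the file headers. The submitters' processing notes list mm10, Subread, SAMtools and featureCounts 1.6.4. The annotation and strand setting are not given in the sources used here. Libraries held 16430330 to 19486965 counts.

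From these counts, genes were kept by filterByExpr (16713), scaled by TMM (factors 0.855 to 1.15) and fitted in 1 edgeR 4.0.16 quasi-likelihood model over all 12 libraries (R 4.3.3), with 2-sided tests and Benjamini-Hochberg adjustment over all genes. 5 contrasts were planned and 1 (both knock-in groups against SD mCherry) was added after the data were seen. The common biological coefficient of variation was 0.536. SEs were derived from the F statistics. The procedure was run on simulated data at the spread of these data and at a lower spread. Recovery of changed genes was required only at the lower spread. The numbers recovered are not reported here, so no estimate is given of how many true differences are found. Exon lengths and positions come from GENCODE M21 (mm10), and promoters from RefSeq. An exact permutation test of 3 against 3 cannot go below 0.1, so none is given.

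The members and gene lists were chosen with earlier results of these data known. Named genes are the 10 members, Tert, genes of each list that were called or had the 3 smallest p-values in a comparison, genes overlapping a member, and the 3 genes most correlated with each member. Alternatives were DESeq2 1.42.0, limma-voom (limma 3.58.1), RLE scaling, library size only, no filter, only the libraries compared, an epithelial marker covariate, leaving out each library, and 2 library subsets chosen after seeing the data.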

Additional observations from a re-analysis of the deposited data

How the results depend on the processing

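No paired analysis was possible because no replicate number occurs in more than 1 group. Gene and member counts below are edgeR calls at an adjusted p under 0.05 unless another tool is named, and the cause of each change was not tested. For the test across the 4 groups, the number of all genes called under each alternative is not given. Those member counts therefore cannot be set against a share of all genes. With all 12 libraries, edgeR called 8 genes for the diet, 0 for HFD Tert, 2 for HFD TertCi and 28 for both knock-in groups against HFD mCherry, and 0 for the knock-in groups against each other and against SD mCherry. DESeq2 called 1988 genes and 5 members for the diet, 810 and 2 for HFD Tert, 599 and 1 for HFD TertCi, 10 and 0 between the knock-in groups, 1442 and 2 for both knock-in groups, 1568 and 1 against SD mCherry, and 4 members across the 4 groups. The epithelial covariate gave 1435 genes and 4 members for the diet, 936 and 2 for HFD Tert, 520 and 3 for HFD TertCi, 1551 and 4 for both, 816 and 1 against SD mCherry, and 4 members across the 4 groups. Leaving out HFD mCherry replicate 15 and SD mCherry replicate 3 together, chosen after seeing the data, gave 1874 and 6, 382 and 1, 665 and 2, 1298 and 4, 1680 and 1, and 5 members, in the same order. The 8 libraries with Crisp1, also chosen afterwards, gave 0 genes for the diet, 0 for HFD TertCi and 0 for both. limma-voom called 0 genes for the diet and 12 for both, and RLE scaling called 2 for the diet. Library size scaling called 5 genes for the diet, 1 for HFD TertCi and 128 for both. Fits to only the libraries compared called 0 for the diet, 0 for HFD TertCi, 68 for both and 18 against SD mCherry. No member was called under these 5 settings.

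Leaving out 1 library gave 0 to 2082 genes and 0 to 7 members for the diet, with the most without HFD mCherry replicate 15, 686 genes without HFD Tert replicate 27 and 48 without SD mCherry replicate 3. It gave 0 to 51 genes and 0 members for HFD Tert, 0 to 198 and 0 to 1 for HFD TertCi, 0 to 690 and 0 to 4 for both (690 without HFD mCherry replicate 15, 524 without HFD Tert replicate 27 and 482 without SD mCherry replicate 3), 0 to 1194 and 0 to 1 against SD mCherry (1194 without SD mCherry replicate 3, 544 without HFD mCherry replicate 15 and 214 without HFD mCherry replicate 17), and 0 to 4 members across the groups. Each of the other 8 libraries, left out, gave 0 to 2 genes for the diet and 0 to 7 for both, and between the knock-in groups every fit gave 0 genes.

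Of the single-gene log2 values of the members under alternatives, 1174 kept direction and side of the threshold, 60 passed it, 0 fell short and 26 changed sign. For the diet, Ltbp3 was -0.0401 with library size scaling and -0.0402 in 10 libraries, and ran from -0.146 to 0.632 with 1 library left out, as Tgfb3 did from -0.286 to 0.022. For HFD Tert, Ltbp1 was 0.043 with limma-voom and 0.026 with library size scaling, and ran from -0.489 to 0.172, and Ltbp4 from -0.500 to 0.039. For HFD TertCi, Tgfb1 ran from -0.415 to 0.074. For both, Ltbp1 ran from -0.592 to 0.069 and Ltbp4 from -0.523 to 0.015. Against SD mCherry, Tgfbr1 ran from -0.275 to 0.018. For Tert minus TertCi, Tgfb3 was 0.087 with limma-voom and 0.50 in the 8 libraries, Ltbp2 was 0.057 in the 8 libraries, and Ltbp4 was -0.067 with the covariate. With 1 library left out, Tgfb2 ran from -0.060 to 0.627, Tgfb3 from -0.319 to 0.446, Tgfbr1 from -0.015 to 0.183, Ltbp2 from -0.324 to 0.189 and Ltbp4 from -0.147 to 0.196. With 3 libraries a group and a biological coefficient of variation of 0.536, the number of libraries and not the 16430330 or more counts in each sets the precision.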
